A study of Mus musculus with 4 samples.

Results

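The genes described here encode the tumour necrosis factor (TNF) superfamily: its ligands, its receptors, the TRAF adaptors that bind the receptors, and the proteins of the death complexes below them. Members were taken by symbol, as every row whose name begins with Tnfsf or Tnfrsf followed by a number, or is Traf followed by a single digit. To these were added Tnf, Lta, Ltb, Ltbr, Fas, Cd40, Fadd, Tradd, Ripk1, Ripk3, Mlkl, Casp8 and Cflar. A pair of receptors was left out by the rule, and Fasl, which the rule also names, had no row in the table. This gave 46 of the 16857 genes in the table, of which 12 encode ligands, 20 receptors, 7 TRAF adaptors and 7 death complex proteins. RNA was sequenced from 4 mouse colonoid lines, epithelial structures grown in culture from adenomas of the colon. The G0 group comprised lines 75 and 179, labelled heterozygous for LSL-mTERT, an allele of the telomerase gene Tert, and the G2 group comprised lines 157 and 236, labelled homozygous for it. All lines carry the Apcmin name and are labelled Apc-null, so loss of this Wnt pathway inhibitor is common to both groups. The series compares colonoids of low and high chromosomal instability, and no label ties either name to G0 or G2. The labels examined give neither a treatment nor the age of the animals, and none says that the lines of a group came from separate animals. The p-values therefore measure the spread between these lines only.

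TNF superfamily ligands are mostly trimeric proteins, anchored in the membrane or shed from it, that cluster their receptors on the target cell. Receptors with a cytoplasmic death domain, such as TNFR1 and Fas, can assemble FADD and caspase-8 into a complex that kills the cell, or recruit TRADD, RIPK1 and TRAF proteins to activate NF-kappaB. Receptors without a death domain, such as TNFR2 and RANK, bind TRAF proteins directly, and decoy receptors bind a ligand and pass on no death signal. In the intestine TNF is a driver of inflammation, lymphotoxin signals shape lymphoid tissue, and RANK directs epithelial cells to become microfold cells.

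The libraries held between 16545429 and 17901744 counts. Levels are given as normalized counts, that is, counts divided by a size factor of the library that was recovered from the deposited values. Tert, the gene altered in these lines, stood at 93.3 and 97.5 normalized counts in G0 and at 0 and 1.0 in G2. Transcripts of 4 Y-linked genes were at 0 in G0 and lay between 296.2 and 526.4 in G2, so the presence of Y transcripts and the group cannot be told apart for any gene below. The epithelial markers Epcam, Cdh1, Krt8, Krt18, Krt19, Cldn3 and Cldn7 were abundant in all 4 libraries. Krt20 and Cdx1 stood at 7.1 normalized counts or less in both G0 lines. In G2, Krt20 was at 93.8 and 4.9, and Cdx1 at 8.1 and 2.0. Of the 12 colon epithelium markers, 3 (Vil1, Cdx2 and Lgals4) were lower in G2 and Cdh1 was higher, or 33.3% beside 10.5% of all genes tested. Among the lower was the intestinal transcription factor Cdx2, at 2394.9 and 3198.8 in G0 and 270.3 and 186.7 in G2 (adjusted p = 0.00043).

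Many TNF superfamily genes are typical of leukocytes, so markers of other cell types were examined. Ptprc, the pan-leukocyte marker CD45, the T cell gene Cd4 and the myeloid integrins Itgam and Itgax had a count of 0 in all 4 libraries. The summed level of 5 T and NK cell markers was 33.4 and 51.8 normalized counts in G0 and 14.1 and 22.5 in G2, nearly all of it from Lck, and 4 B cell markers summed to 2.0 to 4.9. The 9 macrophage and dendritic cell markers summed to 2123.9 and 3345.0 in G0 and 3283.7 and 4122.0 in G2, mostly from Cd68 and Cd14. Csf1r was at 0 in G0 and at 16.1 and 4.9 in G2. Laptm5 was at 1.0 and 1.0 in G0 and at 7.1 and 23.5 in G2, and did not pass limma (adjusted p = 0.0550). Fibroblast markers (9 genes) summed to 44.2 and 51.8 in G0 and 227.9 and 482.9 in G2, with Acta2 the main contributor in G2 and Dcn and Pdgfra at 0 throughout. Endothelial markers (5 genes) summed to 21.6 and 27.4 in G0 and 99.8 and 113.4 in G2, with Erg at 0 throughout. Tek, at 2.9 and 4.1 in G0 and 47.4 and 45.0 in G2, and Vwf made up most of this sum. In limma, Cd14, Csf1r, Acta2, Col3a1, Tek and Vwf were higher in G2 (adjusted p from 0.00172 to 0.0496). No macrophage, fibroblast or endothelial marker was lower with an adjusted p under 0.05. The part of the fibroblast, endothelial and macrophage markers in the differences below was not tested. In bulk RNA, fewer cells of a type and less RNA per cell cannot be told apart.

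Between G2 and G0, 2 members were higher in G2, Tnf and Tnfrsf11b, and 3 were lower, Tnfrsf1b, Tnfrsf23 and Tnfsf9. Of the 46 members, 40 reached the minimum mean of 1 normalized count and were tested with limma, with p-values adjusted over all 13981 genes tested. Called members were thus 5 of 40 (12.5%), beside 10.5% of all genes tested, of which 5.93% were higher and 4.56% lower. The family was thus called at a share near the background. The median log2 fold change of the tested members was -0.08, with 15 above and 25 below 0, against 0.01 over all genes tested. Both G2 libraries lay on 1 side of both G0 libraries for 23 of the 40 (57.5%), again near the 57.8% of all genes. An unadjusted p under 0.05 was found for 15 of the 40 members and for 3743 of all 13981 genes. Every call given here and below rested on all 4 libraries. Leaving out any single library left limma with 0 of the 13981 genes past the threshold, and with 2376 to 3221 at an unadjusted p under 0.05. Among the members, 10 and 7 had such a p without the first and second G0 line, and 9 and 11 without the first and second G2 line. The 5 called members kept their direction each time, and no fold change among them moved by over 1.5 times.

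**Figure D1:**
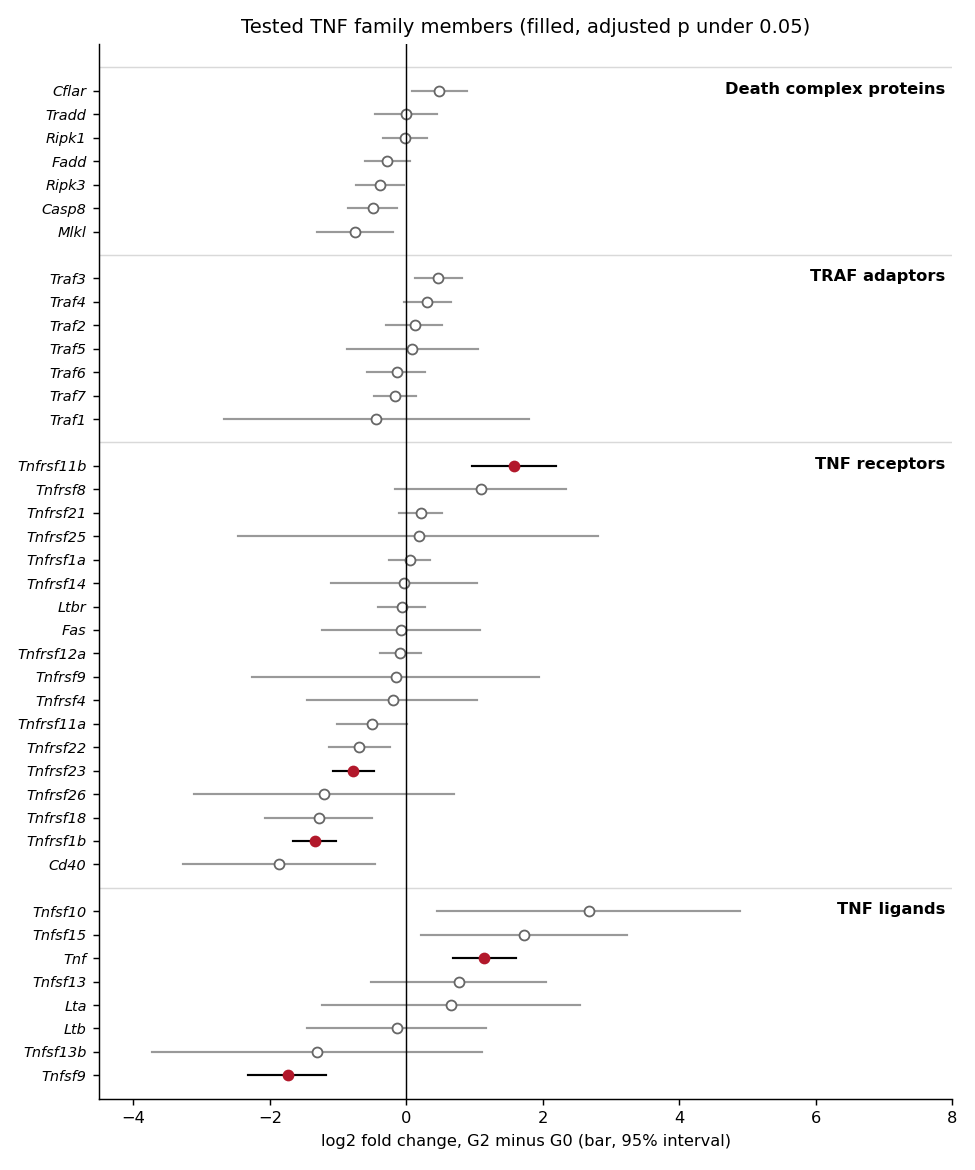
Log2 fold change (G2 minus G0, on the log2(normalized count + 1) scale) of the 40 tested members by role; points are estimates, bars 95% intervals, and filled points the 5 genes with an adjusted p under 0.05. Tnf and Tnfrsf11b sit to the right of 0, Tnfsf9, Tnfrsf1b and Tnfrsf23 to the left, and genes of low level such as Traf1 and Tnfrsf25 have wide bars.

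Among ligands, only Tnf and Tnfsf9 had more than 100 normalized counts on average. Tnf, the founding ligand of the family, lies on chromosome 17 from 35199367 to 35202007 (GRCm38.p6). Its level was 298.5 and 241.8 normalized counts in G0 and 542.6 and 647.1 in G2. The groups did not overlap, and each G2 line held more Tnf RNA than either G0 line. The rise was 2.2-fold, from 270.1 ± 40.1 to 594.8 ± 73.9 (SD, n = 2 each), with a log2 fold change of 1.14 (SE 0.19, adjusted p = 0.0140).

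Tnfsf9, which encodes the ligand of the T cell costimulator 4-1BB, moved the other way. On chromosome 17 from 57105287 to 57107758, it stood at 457.6 and 687.7 normalized counts in G0 and at 154.3 and 180.8 in G2. It fell 3.42-fold, from 572.6 ± 162.7 to 167.6 ± 18.8 (log2 fold change -1.74, SE 0.24, adjusted p = 0.00695), and the lower G0 line was still above both G2 lines. In GENCODE M21, 14.9% of its exonic bases lie under an exon of the opposite-strand gene Gm11110, and the strand setting of the counting is not given in the sources used here, so reads from there cannot be assigned to either gene. Tnfrsf9, the receptor of this ligand, lay between 2.0 and 10.2 normalized counts.

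The other ligands were scarce. The lymphotoxin genes Lta and Ltb, which flank Tnf within 1157 and 3061 bases, reached at most 3.9 and 8.8 normalized counts, and Ltb at 7.9 and 7.1 in G0 and 5.0 and 8.8 in G2 showed overlapping groups. Tnfsf10, which encodes the death ligand TRAIL, had 3 counts in the G0 libraries together and 45 in G2, a ratio of 14.9 with a 95% exact counting interval of 4.79 to 75.0, which covers counting error only. The G2 lines were far apart, at 5.0 and 39.1 normalized counts, and the gene did not pass (adjusted p = 0.125). Tnfsf15, the ligand TL1A, was at 11.8 and 3.0 in G0 and 21.2 and 24.4 in G2 (adjusted p = 0.141). Tnfsf13, the B cell survival factor APRIL, was at 13.7 and 12.2 in G0 and 14.1 and 36.2 in G2, a value limited by the fact that 60.0% of its exonic bases are also in other genes, among them the readthrough gene Tnfsfm13. The related factor Tnfsf13b (BAFF) lay between 0 and 9.1. Tnfsf11 (RANKL), Tnfsf12 (TWEAK), Tnfsf4 (OX40 ligand) and Tnfsf18 (GITR ligand) were under the test's minimum. None had a library above 2.9 normalized counts, a level not distinguishable here from a count of 0. The value of Tnfsf12 is limited as well, since 48.3% of its exonic bases are also in Tnfsfm13.

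**Figure D2:**
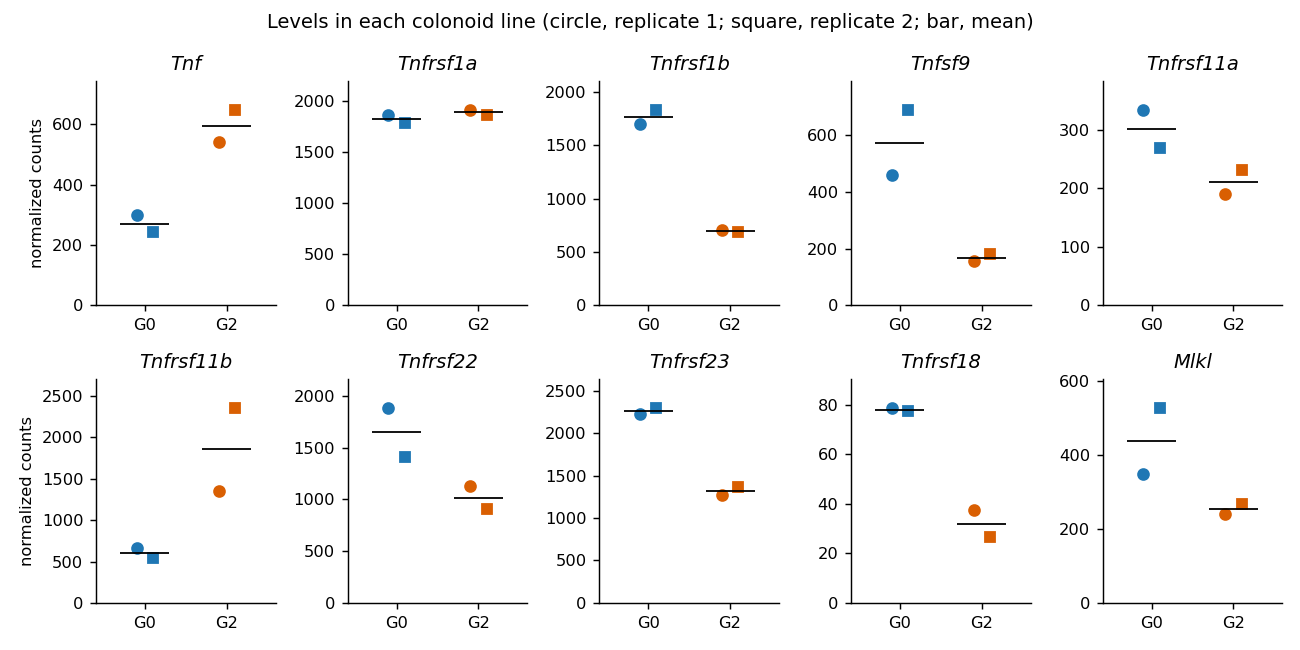
Normalized counts of 10 members in each line (vertical axis, linear from 0; circles are replicate 1, squares replicate 2, bars the mean of 2 lines). Tnf and Tnfrsf11b are higher in both G2 lines, Tnfrsf1a stays between 1783.7 and 1906.1, and Tnfrsf1b, Tnfsf9 and Tnfrsf23 are lower in both G2 lines.

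The 2 receptors of TNF differed. Tnfrsf1a, which encodes the death domain receptor TNFR1, was at 1864.6 and 1783.7 normalized counts in G0 and 1906.1 and 1864.0 in G2. The groups overlapped, and the 95% interval of its log2 fold change ran from -0.25 to 0.34. Tnfrsf1b, which encodes TNFR2, a receptor that lacks a death domain, lies on chromosome 4 from 145212368 to 145246870. It stood at 1699.7 and 1829.5 in G0 and at 702.9 and 685.2 in G2, with little spread in either group. The fall was 2.54-fold, from 1764.6 ± 91.8 to 694.1 ± 12.5 (log2 fold change -1.34, SE 0.13, adjusted p = 0.00216), and it had the smallest p of the family. The ratio of Tnfrsf1b to Tnfrsf1a within a library, which no scaling between libraries can alter, was 0.912 and 1.03 in G0 and 0.369 and 0.368 in G2. Beside a higher level of Tnf RNA, the G2 lines therefore held less RNA of TNFR2 and a level of TNFR1 RNA whose interval spans 0.

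Tnfrsf11b encodes osteoprotegerin, a secreted receptor that binds RANKL and TRAIL and keeps them from their receptors. It lies on chromosome 15 from 54250619 to 54278484, and its level was 658.9 and 539.4 normalized counts in G0 and 1357.4 and 2356.7 in G2. It rose 3.10-fold, from 599.1 ± 84.5 to 1857.0 ± 706.6 (log2 fold change 1.58, SE 0.26, adjusted p = 0.0128); G2 replicate 2 held the most, and without it the ratio of means was 2.27. Tnfrsf11a, which encodes RANK, the signalling receptor of RANKL, was at 332.9 and 268.2 in G0 and 190.6 and 231.7 in G2, short of the threshold (adjusted p = 0.191). The ratio of Tnfrsf11b to Tnfrsf11a within a library was 1.98 and 2.01 in G0 and 7.12 and 10.2 in G2, without overlap. RANKL itself, as given above for Tnfsf11, had a single count in the 4 libraries. These ratios are descriptions, since an exact permutation test of 2 against 2 libraries cannot go below p = 0.333.

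**Figure D3:**
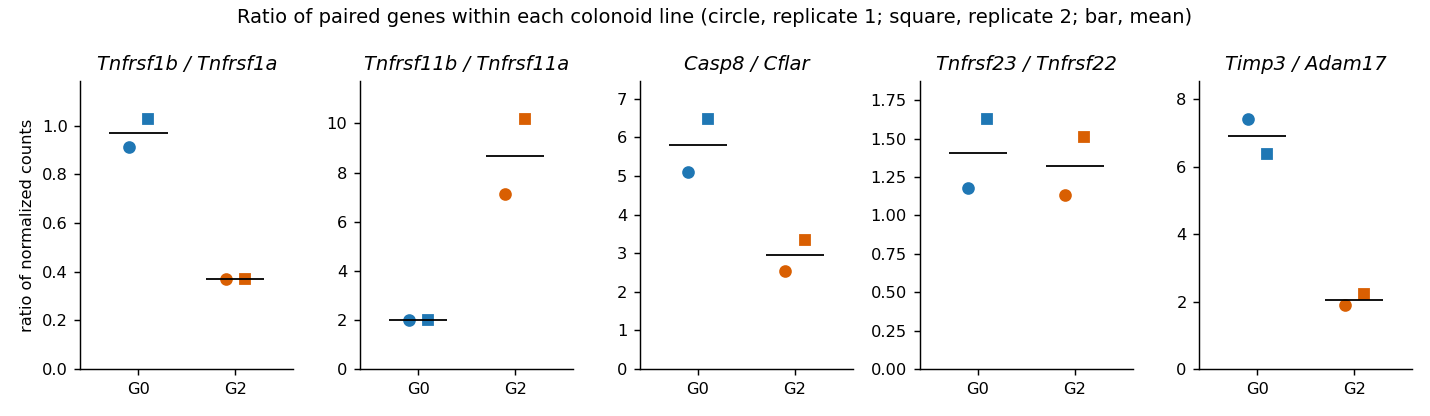
Ratio of the normalized counts of paired genes within each line (vertical axis, linear from 0; circles are replicate 1, squares replicate 2, bars the mean of 2 lines). Tnfrsf1b/Tnfrsf1a, Casp8/Cflar and Timp3/Adam17 are lower in both G2 lines, Tnfrsf11b/Tnfrsf11a is higher, and Tnfrsf23/Tnfrsf22 overlaps.

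Tnfrsf22 and Tnfrsf23 encode mouse decoy receptors for TRAIL and lie 16131 bases apart on chromosome 7. Tnfrsf23, from 143665807 to 143686436, was at 2229.9 and 2295.7 normalized counts in G0 and 1273.7 and 1364.5 in G2. It fell 1.72-fold, from 2262.8 ± 46.5 to 1319.1 ± 64.2 (log2 fold change -0.78, SE 0.13, adjusted p = 0.0124). Tnfrsf22, from 143634808 to 143649675, was at 1882.3 and 1412.0 in G0 and 1128.5 and 902.2 in G2; its groups did not overlap, and it did not pass (log2 fold change -0.69, adjusted p = 0.0652). The ratio of the 2 genes was 1.18 and 1.63 in G0 and 1.13 and 1.51 in G2. Their neighbour Tnfrsf26, 6962 bases beyond Tnfrsf22, reached at most 11.2 normalized counts.

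The decoy receptor genes are close copies, which limits how reads can be assigned. Of all stretches of 50 bases in the GENCODE M21 transcripts of Tnfrsf23, 18.0% also occur in Tnfrsf22. Of those of Tnfrsf22, 17.3% occur in Tnfrsf23. The shares found in any other gene were 19.3% for Tnfrsf23 and 27.4% for Tnfrsf22. How reads from such stretches were counted is not known, and their effect on the values was not measured. The longest run that the coding sequences of the 2 genes share is 102 bases and crosses an exon junction. It spans chr7:143638426-143640768 in Tnfrsf22 and chr7:143668582-143670848 in Tnfrsf23, both on the minus strand of GRCm38, and is shown because a read inside it fits both genes equally.
Shared coding run of Tnfrsf22 and Tnfrsf23: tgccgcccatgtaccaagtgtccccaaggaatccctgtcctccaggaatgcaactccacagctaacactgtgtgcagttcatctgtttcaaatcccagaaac

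Of the remaining receptors, 3 were abundant and close between groups. Per kilobase of the longest coding transcript, the most abundant receptor was Tnfrsf12a, which encodes the TWEAK receptor Fn14, with 3270.9 ± 139.5 normalized counts per kilobase in G0 and 3071.2 ± 58.6 in G2. Ltbr, the lymphotoxin beta receptor, followed with 1681.9 ± 210.3 and 1596.2 ± 49.3, and Tnfrsf1a had 846.1 ± 26.5 and 874.3 ± 13.8. The 95% intervals of their log2 fold changes were -0.39 to 0.21, -0.41 to 0.27 and -0.25 to 0.34. The TWEAK and lymphotoxin genes, which encode ligands of the first 2, are among the lowest described above, whereas Tnf, the ligand gene of TNFR1, was not. For TWEAK the limit from Tnfsfm13 applies. Tnfrsf21, the death domain receptor DR6, was at 1050.6 and 989.4 normalized counts in G0 and 1205.2 and 1150.5 in G2 (adjusted p = 0.361).

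Costimulatory receptors of leukocytes were low. Tnfrsf18, which encodes the T cell costimulator GITR, on chromosome 4 from 156026322 to 156028894, was at 78.6 and 77.2 normalized counts in G0 and 37.3 and 26.4 in G2, a 2.45-fold lower mean, and did not pass (log2 fold change -1.28, adjusted p = 0.0554). An exon of the opposite-strand gene Gm16008 covers 27.2% of its exonic bases, and reads from there cannot be assigned. Cd40 was at 16.7 and 10.2 in G0 and 2.0 and 3.9 in G2 (adjusted p = 0.0969), and Fas, the receptor of Fas ligand, overlapped at 24.5 and 32.5 in G0 and 40.3 and 17.6 in G2. Tnfrsf8 (CD30), at 4.9 and 5.1 in G0 and 14.1 and 9.8 in G2, did not pass (adjusted p = 0.235). Tnfrsf4 (OX40) and Tnfrsf14 (HVEM) lay between 9.1 and 27.2 in all libraries with overlapping groups. Tnfrsf25, the receptor of TL1A, reached at most 4.0, and the B cell receptors Tnfrsf13b and Tnfrsf13c were under the test's minimum.

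TRAF proteins are the cytoplasmic adaptors, most of them ubiquitin ligases, that link receptors to NF-kappaB and MAP kinases. None of the 7 genes passed limma over all genes. An unadjusted p under 0.05 was found for 1 of them, Traf3, beside 3743 of all 13981 genes. Traf4, first known from breast carcinoma, had the highest level of the 7 per kilobase (3174.8 ± 5.2 in G0, 3941.8 ± 428.3 in G2) and stood at 6589.5 and 6604.7 normalized counts in G0 and 8820.3 and 7561.6 in G2 (adjusted p = 0.222). Traf3, an inhibitor of the noncanonical NF-kappaB pathway, was at 1468.9 and 1231.1 in G0 and 1788.1 and 1932.4 in G2, without overlap (log2 fold change 0.47, 95% interval 0.12 to 0.81, adjusted p = 0.0929). Traf2, which joins TNFR1 and TNFR2 to the cIAP ligases, overlapped at 424.2 and 501.8 in G0 and 466.9 and 536.6 in G2, and Traf6 and Traf7 had log2 fold changes of -0.14 and -0.17. Traf1 and Traf5, the adaptors found mainly in lymphocytes, had means of 2.0 and 22.5 in G0.

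Death complex genes were expressed in every line, each with a mean above 100 normalized counts, and 0 of the 7 passed limma over all genes, with 4 at an unadjusted p under 0.05 (3743 of 13981 over all genes). Casp8, the initiator caspase, was at 2615.8 and 2674.6 normalized counts in G0 and 1671.1 and 2111.3 in G2 (log2 fold change -0.49, 95% interval -0.86 to -0.13, adjusted p = 0.0910). Its neighbour 36348 bases away on chromosome 1, Cflar, encodes c-FLIP, which resembles caspase-8 and restrains it; this gene was at 511.6 and 412.4 in G0 and 654.5 and 631.4 in G2 (log2 fold change 0.48, adjusted p = 0.127). The ratio of Casp8 to Cflar was 5.11 and 6.49 in G0 and 2.55 and 3.34 in G2, without overlap, with the same limit on a test as the other ratios.

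Necroptosis, the caspase-independent death below RIPK1, uses the kinase RIPK3 and the membrane-breaking protein MLKL. Mlkl, on chromosome 8 from 111311255 to 111338479, was at 349.6 and 528.2 normalized counts in G0 and 241.0 and 268.8 in G2 (log2 fold change -0.75, adjusted p = 0.0945). Ripk3 was at 1536.7 and 1888.4 in G0 and 1345.3 and 1269.7 in G2 (adjusted p = 0.162). Both had G2 lines below both G0 lines, as had Casp8 and the adaptor gene Fadd, and none reached the threshold. Fadd was at 991.7 and 996.5 in G0 and 779.6 and 855.3 in G2 (adjusted p = 0.240). Cflar had both G2 lines above. Groups thus did not overlap for 5 of the 7 death complex genes (71.4%), beside 57.8% of all genes tested. Ripk1 overlapped at 886.7 and 865.5 in G0 and 837.1 and 894.4 in G2, with a 95% interval of -0.34 to 0.31, and Tradd overlapped with an interval of -0.46 to 0.45.

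Other genes of the pathway were read from 6 lists, with 68 genes tested. In G2, 2 of these were higher and 4 lower, or 8.82% beside the background of 10.5%. Ubiquitin and kinase partners of the receptors had 1 higher and 1 lower of 27 tested (7.41%), with a median log2 fold change of 0.19. Tnip3, which encodes an A20-binding inhibitor of NF-kappaB, on chromosome 6 from 65590398 to 65634040, was at 875.9 and 689.7 normalized counts in G0 and 2893.4 and 2663.6 in G2. It rose 3.55-fold (log2 fold change 1.84, SE 0.16, adjusted p = 0.00120). Tifa, an adaptor that oligomerizes TRAF6, on chromosome 3 from 127788875 to 127798394, fell 4.06-fold, from 483.1 and 386.0 to 135.1 and 79.2 (log2 fold change -2.05, SE 0.30, adjusted p = 0.00800). The A20 gene itself, Tnfaip3, was at 757.0 and 603.4 in G0 and 994.4 and 1134.8 in G2, short of the threshold (adjusted p = 0.0556).

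TNF and its receptors are released from the cell surface by the protease ADAM17, which iRhom proteins bring to the membrane and TIMP3 inhibits. Of 6 genes of this group 1 passed (16.7%, beside 10.5% of all genes tested), with a median of 0.04. Timp3, on chromosome 10 from 86300412 to 86349505, fell 3.34-fold, from 8718.3 and 6541.7 normalized counts in G0 to 2076.5 and 2488.6 in G2 (log2 fold change -1.73, SE 0.18, adjusted p = 0.00249). Adam17 was at 1173.4 and 1024.9 in G0 and 1091.2 and 1127.0 in G2, with a 95% interval of -0.32 to 0.35. The ratio of Timp3 to Adam17 was 7.43 and 6.38 in G0 and 1.90 and 2.21 in G2.

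Caspase cascade genes had 0 of 16 past the threshold in limma and a median of -0.06. An unadjusted p under 0.05 was found for 2 of the 16, beside 3743 of all 13981 genes. Family genes under other names, such as the ectodysplasin receptor gene Eda2r (854.3 and 508.9 in G0, 892.5 and 766.3 in G2), had 0 of 6 past it and 0 at an unadjusted p under 0.05. Among 4 Tnfaip genes tested in this list, 1 was lower (25%, beside 10.5% of all genes tested). Tnfaip3, given above with the ubiquitin partners, is not in this count. This was Tnfaip2, a TNF-induced gene that microfold cells also express. It fell from 909.2 and 1646.6 normalized counts to 376.2 and 324.5 (log2 fold change -1.81, adjusted p = 0.00969).

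RANK signalling drives microfold cell differentiation, and genes of that cell type were mixed. Of 10 tested, 1 rose, Ccl20, and 2 fell, Ccl9 and Tnfaip2, with a median of 0.08. Called genes were thus 30% of this short list, beside 10.5% of all genes tested. Ccl9, a chemokine of the follicle epithelium, fell from 25.5 and 27.4 normalized counts in G0 to 2.0 and 2.0 in G2 (adjusted p = 0.0107). Ccl20, which attracts CCR6-bearing cells and is also induced by TNF in other epithelial cells, rose from 6.9 and 7.1 to 243.0 and 186.7 (adjusted p = 0.000526). The defining surface receptor gene Gp2 was at 0 in both G0 lines and at 1.0 and 23.5 in G2, and Spib and Sox8, transcription factors of the cell type, reached at most 6.1 and 2.0 normalized counts.

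**Figure D4:**
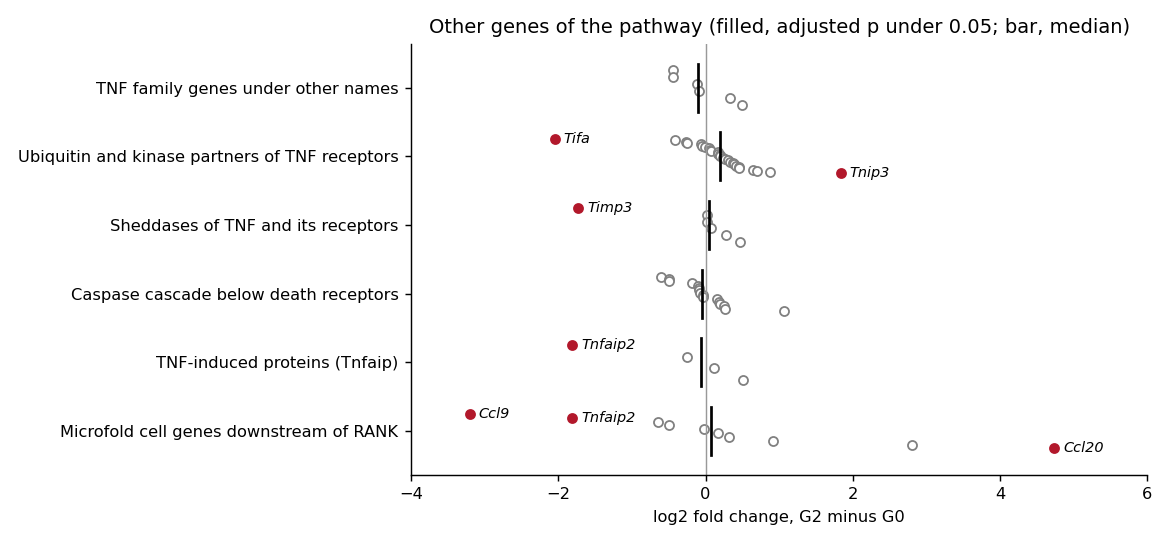
Log2 fold change (G2 minus G0) of the tested genes in 6 lists of pathway genes; each point is a gene, filled where the adjusted p is under 0.05, and the bar is the median of the list. Most points lie near 0. The filled points are Ccl20, Tnip3, Tifa, Timp3, Tnfaip2 and Ccl9, and the unfilled point of Gp2 also stands apart, at 2.81. Tnfaip2 is in 2 lists.

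Genes that neighbour each other within the family did not all differ alike. Tnf had a log2 fold change of 1.14 between Lta at 0.65 and Ltb at -0.14, neither of which passed. Tnfrsf1b, at -1.34, lies 20261 bases from Tnfrsf8, at 1.09, and Tnfrsf18, at -1.28, lies 9708 bases from Tnfrsf4, at -0.20. Ltbr and Tnfrsf1a, 35837 bases apart on chromosome 6, were at -0.07 and 0.05. On chromosome 7, the decoy receptor genes Tnfrsf22 and Tnfrsf23 were at -0.69 and -0.78. Their scarce neighbour Tnfrsf26 was at -1.21, with overlapping groups. The scarce genes among these have wide intervals, and the differences between neighbours were not tested.

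Promoter windows of RefSeq (GRCm38.p6, from 250 bases before a start site) were given for 38 of the 46 members and searched on both strands. The kappaB consensus was found for 5 members (13.2%), Ltb, Tnfrsf25, Tnfrsf8, Tnfrsf9 and Traf3, and in 8.46% of all 32851 windows of 300 bases. The AP-1 motif TGANTCA was found for 5 members (7.81% of all windows), TATAAA for 6 (13.6%), and the interferon response core GAAANNGAAA for 5 (3.44%), including Tnfrsf1b and Cflar; a member can have several windows, so its share is not strictly comparable. Of the called members only Tnf, Tnfrsf1b and Tnfrsf23 had a window. The 100 bases before the start are printed for Tnf and Tnfrsf1b, the ligand and receptor that moved in opposite directions. As examples of a kappaB match, those of Traf3 and Tnip3 are printed too. Capitals mark TATAAA in Tnf, the interferon response core on the opposite strand in Tnfrsf1b, and the kappaB match in Traf3 and Tnip3. The Tnf window is chr17:35202008-35202107 on the minus strand and that of Tnfrsf1b is chr4:145246871-145246970 on the minus strand. Those of Traf3 and Tnip3 are chr12:111166270-111166369 and chr6:65590298-65590397 on the plus strand.
Tnf: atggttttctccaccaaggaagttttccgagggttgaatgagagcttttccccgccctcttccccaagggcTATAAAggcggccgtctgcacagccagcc
Tnfrsf1b: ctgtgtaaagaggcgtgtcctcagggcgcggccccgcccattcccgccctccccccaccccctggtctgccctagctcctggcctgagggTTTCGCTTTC
Traf3: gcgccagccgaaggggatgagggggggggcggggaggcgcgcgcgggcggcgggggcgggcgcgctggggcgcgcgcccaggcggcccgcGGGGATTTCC
Tnip3: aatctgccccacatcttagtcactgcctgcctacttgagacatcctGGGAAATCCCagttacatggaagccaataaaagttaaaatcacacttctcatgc

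The matches describe these letters and nothing more. The kappaB match of Tnip3 begins at position -54 relative to the start, and that of Traf3 at position -10. Among called pathway genes, a kappaB match was also found for Ccl20 (-80), higher in G2. Such a match was found too for Tnfaip2 (-24), Ccl9 (-35) and Tifa (34), all lower in G2. Pathway genes that were not called also had kappaB matches, among them Xiap, Cyld, Tnfaip3, Tnip1 and Tank. The share of pathway genes with a match was not computed. No match in a window says only that the letters are not in that window, and sequence farther from the start was not searched.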

How the data were processed

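The authors deposited 1 table of log2 values for 16857 genes and 4 libraries, with a lowest value of 6.508 in every library. The submitters' processing notes name HISAT2 2.1.0, StringTie 2.1.1, DESeq2 1.32.0 and mm10; neither annotation nor strand setting is given in the sources used here. A floor of this kind matches a variance-stabilizing transformation, which was inverted; 1 size factor per library then made 100% of values whole within 0.001. These counts may be rounded estimates, so no count test was run; limma 3.58.1 (R 4.3.3, eBayes with intensity trend) was fitted to log2(normalized count + 1) of genes averaging at least 1, group as the only term, two-sided, Benjamini-Hochberg over 13981 genes, threshold 0.05. Fold changes on this scale understate low genes; folds in words are ratios of mean normalized counts. The fit was tested on simulated data. Members passing the threshold, or with groups that do not overlap, a ratio of at least 1.5 and a mean of at least 20, are given library by library. Members and lists were chosen with earlier results of these data known. Positions are RefSeq GRCm38.p6; transcript lengths and overlaps are GENCODE M21. Alternatives changed the scale, pseudocount, filter, scaling, trend, block or left out a library.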

Additional observations from a re-analysis of the deposited data

How the results depend on the processing

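Directions of the 5 called members held under all 13 alternatives, and the calls did not. Without any 1 library, limma called 0 to 0 members higher, 0 to 0 lower, and 0 to 0 pathway genes in either direction, at unadjusted p of 0.00116 to 0.0416 for the 5 genes and adjusted p of 0.132 to 0.282; fewer libraries leave fewer residual degrees of freedom. Without the intensity trend, 0 members were higher and 1 lower (Tnfrsf1b, adjusted p = 0.0361), and 2 pathway genes were lower; genes called fell from 1467 to 623, and the cause was not tested. With a minimum mean of 5, 4 pathway genes were higher, adding Tnfaip3 and Traf3ip2, with fewer genes tested. Traf3ip2 also passed with a pseudocount of 5, with scaling to the total count and with the replicate block. Tnfrsf18 passed on the deposited log2 scale, with a pseudocount of 5 and with a minimum mean of 5 (adjusted p = 0.0496, 0.0471 and 0.0468). It also passed with the replicate block (adjusted p = 0.00907). The replicate block called 6 members higher and 8 lower, and 8 and 9 pathway genes, of 3503 genes in all; the labels share only a number, and the deviations of same-numbered libraries correlated at 0.109 across genes. The median over members stayed between -0.17 and -0.02. Scaling to the total count moved the median of all genes from 0.012 to 0.079 and changed 0 of the 5 calls. At this depth, 11 of the 46 members stayed under 10 normalized counts in every library; 6 of them were not tested, and small differences in the others were not detectable.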
